A study of Rattus norvegicus with 32 samples.

Results

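Toll-like receptors (TLRs), their co-receptors and their first adaptors were followed in liver sinusoidal endothelial cells (LSECs) of rats during chronic liver disease (CLD). The family was defined by 10 gene symbols, and 8 of these were found among the 32623 genes of the files, namely Tlr2, Tlr3, Tlr4, Tlr5, Tlr7, Tlr9, Cd14 and Myd88. Ly96 (MD-2) and Ticam1 (TRIF) matched no symbol and were not analysed here. RNA sequencing covered 32 libraries of LSECs from male rats. In the carbon tetrachloride (CCl4) model, Wistar Han rats inhaled this hepatotoxin for 2 weeks (acute, n = 5), 6 weeks (fibrosis, n = 5) or 12 to 14 weeks (cirrhosis, n = 6), and untreated Wistar Han rats gave the healthy group (n = 6). Drinking water of the CCl4 model held phenobarbital, a drug that raises the conversion of CCl4 to its toxic products. Whether the healthy rats drank it too is not given in the sources used here. LSECs were collected some days after the last dose, so that none of the groups shows the hours that follow a dose, and ages are not given in the sources used here. A second experiment, with thioacetamide (TAA), another hepatotoxin, held 5 libraries labelled control and 5 labelled TAA control. The study describes healthy and TAA-cirrhotic Sprague-Dawley rats there, while the labels name Wistar Han, and which group received TAA was not settled. Differences in that experiment are therefore given by label, with no direction of disease.

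TLRs are membrane proteins that recognise molecules of microbes and of damaged cells. Tlr2 (bacterial lipoproteins), Tlr4 (endotoxin, with Cd14 and Ly96) and Tlr5 (flagellin) act at the cell surface, and Tlr3 (double-stranded RNA), Tlr7 (single-stranded RNA) and Tlr9 (unmethylated CpG DNA) act in endosomes. All of these but Tlr3 signal through the adaptor Myd88 to Irak kinases and NF-kappaB, whereas Tlr3, and Tlr4 from endosomes, use Ticam1 and lead to interferons. LSECs line the vessels that receive gut-derived blood and are known to express several TLRs and to take up endotoxin, and Kupffer cells, the resident macrophages of the same vessels, are rich in Tlr4, Cd14 and Tlr2.

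The promoters are shown for Myd88, Tlr9, Tlr2 and Tlr3, which fell at both the acute and fibrosis stages, and for Tlr4, which did not pass the test at either stage. These are the 250 bases before the transcript start in RefSeq (build GRCr8, not the build of the counts), 5′ to 3′ on the strand of the gene. Capitals mark letters of AP-1 (TGANTCA), of the interferon-stimulated response element (GAAA, NN and GAAA in a row), of PU.1 (GAGGAA) and of NF-kappaB (GGGA, NNNN and CC in a row), which were searched on both strands.
Myd88: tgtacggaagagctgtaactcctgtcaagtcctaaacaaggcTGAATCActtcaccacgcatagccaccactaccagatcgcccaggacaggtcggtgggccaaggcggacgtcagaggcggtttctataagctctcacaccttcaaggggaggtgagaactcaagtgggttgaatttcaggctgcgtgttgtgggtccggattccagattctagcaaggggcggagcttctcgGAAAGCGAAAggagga
Tlr9: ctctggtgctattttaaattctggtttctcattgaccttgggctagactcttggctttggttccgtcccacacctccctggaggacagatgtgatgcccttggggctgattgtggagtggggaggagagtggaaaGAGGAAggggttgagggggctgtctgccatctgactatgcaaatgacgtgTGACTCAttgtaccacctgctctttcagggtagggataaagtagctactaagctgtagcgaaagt
Tlr2: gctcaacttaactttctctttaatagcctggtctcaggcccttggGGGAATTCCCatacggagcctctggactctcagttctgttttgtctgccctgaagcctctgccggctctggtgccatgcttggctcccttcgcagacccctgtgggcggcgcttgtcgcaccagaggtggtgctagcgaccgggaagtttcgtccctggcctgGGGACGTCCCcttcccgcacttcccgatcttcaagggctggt
Tlr3: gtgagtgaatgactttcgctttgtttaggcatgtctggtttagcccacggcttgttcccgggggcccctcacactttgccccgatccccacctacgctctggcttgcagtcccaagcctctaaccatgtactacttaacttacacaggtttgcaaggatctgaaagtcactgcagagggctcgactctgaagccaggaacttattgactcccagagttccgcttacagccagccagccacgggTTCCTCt
Tlr4: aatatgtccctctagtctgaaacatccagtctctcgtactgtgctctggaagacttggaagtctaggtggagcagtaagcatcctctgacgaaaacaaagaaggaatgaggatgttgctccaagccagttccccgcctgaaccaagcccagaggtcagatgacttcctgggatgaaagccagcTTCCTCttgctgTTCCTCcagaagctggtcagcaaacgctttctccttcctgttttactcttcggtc
The windows are chr8:127956231-127956480 on the minus strand for Myd88, chr8:115743157-115743406 on the plus strand for Tlr9, chr2:171504558-171504807 on the minus strand for Tlr2, chr16:53554666-53554915 on the plus strand for Tlr3 and chr5:85160997-85161246 on the plus strand for Tlr4. Myd88 held 1 AP-1 match and 1 interferon-stimulated response element that ends 7 bases before the start. Tlr9 held 1 AP-1 and 1 PU.1 match, Tlr2 held 2 NF-kappaB matches, Tlr3 held 1 PU.1 match, and Tlr4 held 2 PU.1 matches. Among the other members with a window, Cd14 held 2 PU.1 matches and Tlr7 1, and Tlr5 none of the 4 motifs. Of 33469 RefSeq promoters of the same length, 16.4% held NF-kappaB letters, 6.34% AP-1, 3.41% the interferon-stimulated response element and 23.3% PU.1. No matches overlapped within the 5 windows shown. These matches describe the letters of each window and are not evidence of binding. Windows were found for 8 of the 10 members.

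Library totals ranged from 25646531 to 46464289 expected counts, and levels are given as CPM, for which each library's total was adjusted by its TMM factor. Several features of the libraries moved with the stages. LSEC markers (Stab1, Stab2, Lyve1 and 4 others) summed to 11300 to 19300 CPM in healthy and 10000 to 12600 CPM in cirrhotic libraries, but to 1860 to 2290 CPM in acute and 1330 to 2170 CPM in fibrosis libraries. Against healthy LSECs 6 of the 7 markers fell after acute injury and 7 at fibrosis, and in cirrhosis 1 rose and 3 fell. Of all genes tested, 37.9%, 34.9% and 24.7% were called lower at these stages in turn, and 27.1% higher in cirrhosis. Stab2, a scavenger receptor that defines LSECs, lay at 1470 to 5060 CPM in healthy, 99.6 to 273 CPM in acute, 88.6 to 238 CPM in fibrosis and 2580 to 3980 CPM in cirrhotic libraries. Stab1, its relative, stayed lower in cirrhosis, at 932 to 1480 CPM against 2850 to 7160 CPM in healthy libraries, and Lyve1 was not called after acute injury, at 681 to 1160 CPM against 498 to 2290 CPM. Immediate-early genes, which respond fast to many stimuli, summed to 23300 to 48000 CPM in healthy, 754 to 1990 CPM in acute, 1630 to 2570 CPM in fibrosis and 14400 to 31000 CPM in cirrhotic libraries. Their part in the changes of the TLR genes was not tested. No batch is named in the labels, so that batch and stage cannot be told apart. These are bulk libraries, in which fewer cells of a type and less RNA per cell cannot be told apart.

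In LSECs after acute injury, 5 of the 8 members were lower than in healthy LSECs (Tlr2, Tlr3, Tlr9, Cd14 and Myd88) and none was higher. A gene was called at a Benjamini-Hochberg adjusted p-value under 0.05 from limma-voom, over all genes tested, and a fold-change above 1.5. By this rule 37.9% of the 14317 genes tested were lower after acute injury, and the count of members was read against that share. The members had a median log2 fold change of -1.14, against -0.09 over all genes tested. At fibrosis 5 of 8 were lower (Tlr2, Tlr3, Tlr5, Tlr9 and Myd88) and none higher, where 34.9% of the 14538 genes tested were lower, with medians of -1.15 and -0.03. Tlr9 was near the floor at both stages and passed the filter through the healthy libraries. In cirrhosis Tlr3, Tlr4 and Tlr7 were higher than in healthy LSECs and Myd88 was lower. Of 14789 genes, 27.1% were higher and 24.7% lower in that comparison. Acute, fibrosis and cirrhosis were each set against the same healthy libraries. Between fibrosis and acute injury 0 of 7 members passed limma-voom's test, where 11% of 13931 genes did, and Tlr5 alone had an unadjusted p under 0.05. edgeR and DESeq2 called 0 members there as well. Cirrhosis was above fibrosis in 7 of 8 members, all but Tlr7, where 34.3% of 15186 genes were higher, with medians of 2.23 over the members and 0.04 over all genes. The Tlr5 call among these was lost without any of 4 fibrosis replicates. Cirrhosis was above acute injury in 7 of 8 as well, all but Tlr5, which edgeR and DESeq2 called too, where 37.5% of 15005 genes were higher.

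**Figure D1:**
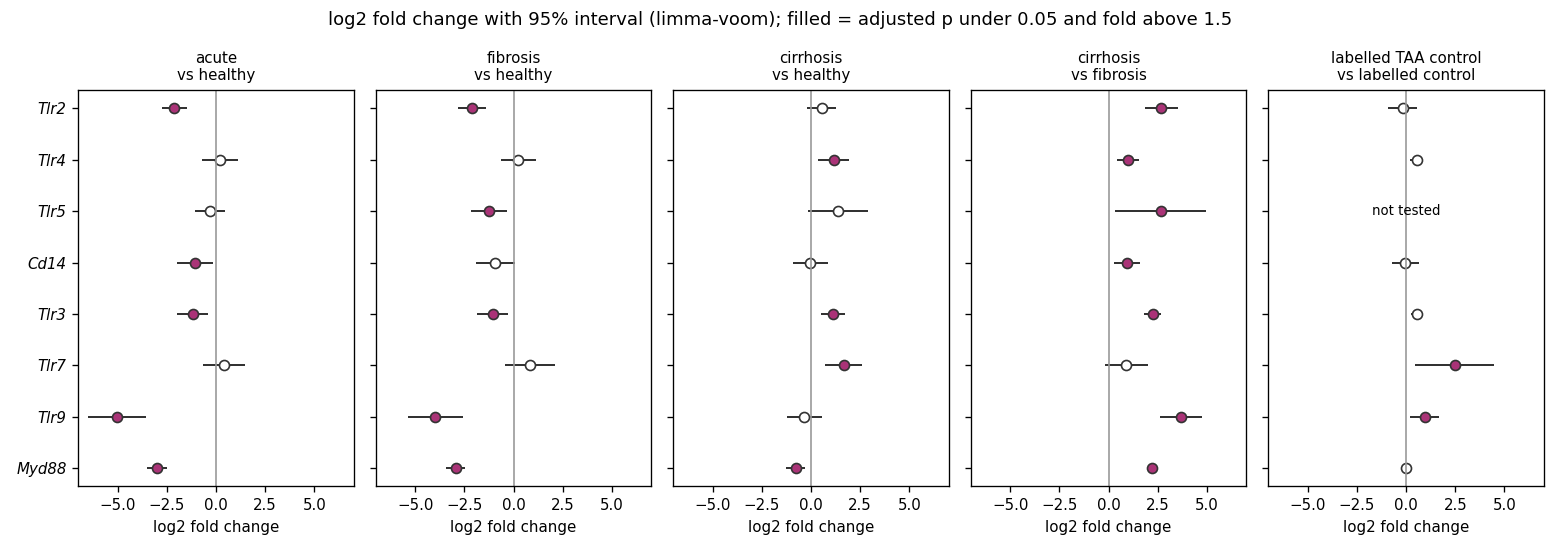
log2 fold change (x axis) of the 8 members (y axis) in 5 comparisons, each as a point with its 95% interval from limma-voom, filled where the adjusted p was under 0.05 and the fold above 1.5. In both left panels the filled points lie below 0, Tlr9 farthest at -5.04 and -3.97, and in cirrhosis against fibrosis 7 filled points lie above 0.

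Among the surface receptors, Tlr2 (ENSRNOG00000009822) had the deepest fall at the early stages. Healthy libraries ranged from 46.7 to 113.8 CPM with a median of 61.7 CPM. Acute libraries lay at 15.9, 9.81, 13.6, 18.4 and 20.4 CPM, and fibrosis libraries at 17.9, 10.8, 24.9, 18.1 and 9.19 CPM. Neither stage overlapped the healthy group. Cirrhotic libraries ranged from 40.6 to 170.1 CPM (median 104 CPM) and overlapped the healthy group, with replicate 2 the lowest of the 6. Tlr2 fell by 2.12 on the log2 scale after acute injury (SE 0.27, adjusted p = 1.82e-05) and by 2.09 at fibrosis (SE 0.30, adjusted p = 5.76e-05). From fibrosis to cirrhosis it rose by 2.69 (SE 0.36, adjusted p = 2.43e-05). Against healthy LSECs the cirrhotic level was 0.54 higher (95% interval -0.14 to 1.21, adjusted p = 0.156), and it was called without cirrhotic replicate 2 (0.77, adjusted p = 0.0158) and with library size in place of TMM (0.88, adjusted p = 0.0213). The order of the mean levels was cirrhosis (106 ± 41.4 CPM, SD, n = 6), healthy (71 ± 25.7 CPM, n = 6), fibrosis (16.2 ± 6.34 CPM, n = 5) and acute (15.6 ± 4.15 CPM, n = 5). Of these neighbours only healthy and fibrosis differed by the test.

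Cd14 (ENSRNOG00000017819), which hands endotoxin to Tlr4 and also serves Tlr2, varied widely within the healthy group. Its healthy libraries lay between 31.7 and 172 CPM (median 80.2 CPM), replicates 5 and 6 being the lowest. Acute libraries were at 31, 24.4, 29.6, 39 and 41 CPM and overlapped the healthy range. The fall after acute injury was 1.08 on the log2 scale (SE 0.40, adjusted p = 0.025). It was not called with library size in place of TMM (-0.67, adjusted p = 0.119), nor without acute replicate 2, acute replicate 3 or healthy replicate 3 (-0.96, -1.03 and -0.94, adjusted p = 0.0628, 0.0521 and 0.0559). At fibrosis, with libraries at 36.9, 24.5, 65.2, 41.3 and 22.9 CPM, the difference was -0.92 (95% interval -1.88 to 0.03, adjusted p = 0.0742) and not called by limma-voom, but edgeR's quasi-likelihood test (-1.06, adjusted p = 0.0437) and DESeq2 (-1.03, adjusted p = 0.0241) called it. Cirrhotic libraries ranged from 43.4 to 101.6 CPM with a median of 64.3 CPM. They were 0.94 above fibrosis (SE 0.29, adjusted p = 0.0102) and 1.07 above acute injury (SE 0.22, adjusted p = 0.000643), and differed from healthy LSECs by -0.05 (95% interval -0.88 to 0.79).

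Tlr4 (ENSRNOG00000010522), the endotoxin receptor, showed no such fall. The acute libraries held 5.34, 4.55, 4.92, 5.09 and 2.59 CPM and the fibrosis libraries 3.93, 4.81, 4.29, 3.27 and 6.27 CPM. Both sat inside the healthy range of 1.68 to 8.68 CPM (median 3.32 CPM). Differences from healthy LSECs were 0.21 after acute injury (95% interval -0.64 to 1.07) and 0.25 at fibrosis (95% interval -0.60 to 1.10), so that a fall or rise of up to about those bounds could not be told from no change. In cirrhosis Tlr4 ranged from 6.5 to 13.7 CPM (median 8.03 CPM), above every acute and fibrosis library and overlapping healthy replicates 5 and 6. It rose by 1.15 against healthy LSECs (SE 0.34, adjusted p = 0.0116), by 0.98 against acute injury (adjusted p = 0.00237) and by 0.98 against fibrosis (adjusted p = 0.00181). With healthy replicates 3 and 5 as the only healthy libraries the rise was 0.90 and was not called (adjusted p = 0.0934).

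Tlr5 (ENSRNOG00000022067), the flagellin receptor, was at the low end of detection and spread widely in cirrhosis. Healthy libraries ranged from 1.09 to 2.54 CPM (median 1.28 CPM) and acute libraries held 1.42, 0.899, 1.5, 1.54 and 0.853 CPM. Fibrosis libraries held 1.26, 0.593, 0.266, 0.718 and 0.554 CPM, of which replicate 12 alone reached into the healthy range. Tlr5 fell by 1.25 at fibrosis (SE 0.40, adjusted p = 0.0142), a call lost with library size in place of TMM (-0.86, adjusted p = 0.0778), with a fit over all 4 groups (-1.32, adjusted p = 0.133) and with healthy replicates 3 and 5 alone (-0.95, adjusted p = 0.119). Cirrhotic libraries held 4.05, 0.655, 3.07, 10.8, 11.8 and 4.09 CPM, so that replicate 2 lay below every healthy library and the other 5 above all of them. The rise in cirrhosis was 1.38 (95% interval -0.10 to 2.85, adjusted p = 0.0996) and not called by limma-voom. It was called by edgeR's quasi-likelihood test (1.79, adjusted p = 0.014), by DESeq2 (1.80, adjusted p = 0.00174) and by limma-voom without cirrhotic replicate 2 (1.91, adjusted p = 0.00447). Against fibrosis Tlr5 was 2.66 higher in cirrhosis (SE 1.04, adjusted p = 0.0333), a call lost without fibrosis replicate 13, 15, 16 or 17 (adjusted p = 0.0599, 0.0703, 0.0586 and 0.0629). Against acute injury the difference was 1.71 (95% interval 0.01 to 3.41, adjusted p = 0.0597) and not called by limma-voom. It was called by edgeR (2.20, adjusted p = 0.0039), by DESeq2 (2.26, adjusted p = 4.16e-05), in a fit over all 4 groups (1.70, adjusted p = 0.0175), with upper-quartile factors (1.91, adjusted p = 0.0362) and without cirrhotic replicate 2 (2.28, adjusted p = 0.00137).

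**Figure D2:**
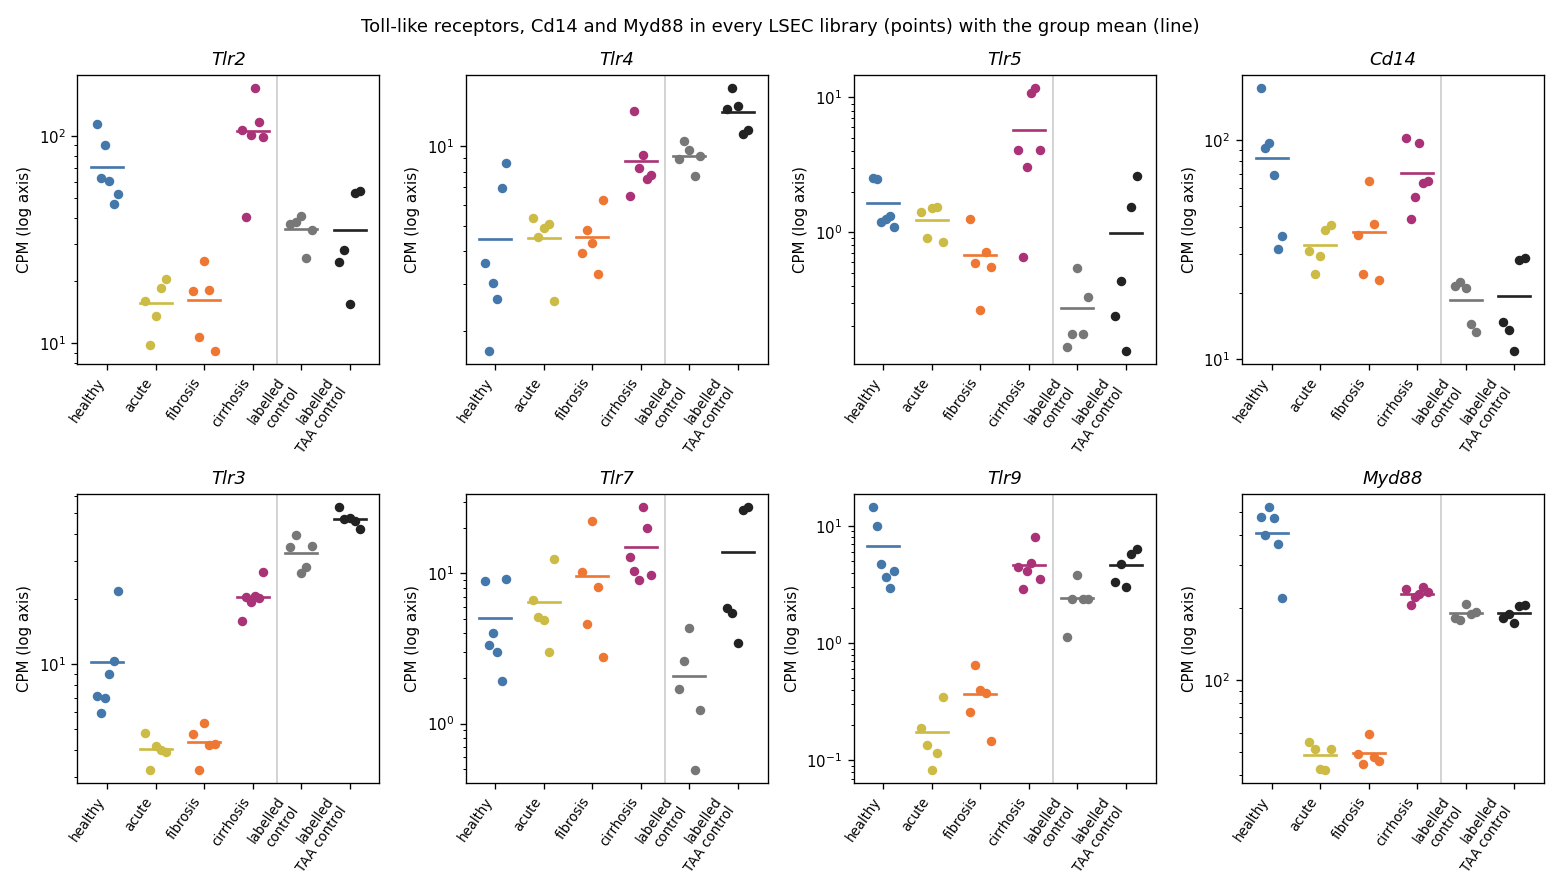
CPM (y axis, log scale) of the 8 members in each library (points, 1 per rat by the study's methods) by group (x axis), with the group mean as a line. The first 4 groups belong to the CCl4 model and the last 2 to the TAA experiment, each scaled within its own experiment. Tlr2, Tlr3, Tlr9 and Myd88 have acute and fibrosis points apart from the healthy points, while those of Tlr4 and Tlr7 overlap.

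Of the endosomal receptors, Tlr9 (ENSRNOG00000048161) lost most. Healthy libraries held from 2.93 to 14.6 CPM (median 4.41 CPM), replicates 1 and 2 being the highest. Acute libraries held 0.191, 0.136, 0.0833, 0.115 and 0.347 CPM and fibrosis libraries 0.258, 0.655, 0.399, 0.373 and 0.146 CPM. Neither stage overlapped the healthy or the cirrhotic libraries. Acute libraries held 3 to 11 and fibrosis libraries 5 to 21 expected counts of Tlr9, which is near the floor. In the main fits Tlr9 passed the filter only through the healthy or cirrhotic libraries, so the size of its falls is uncertain. Tlr9 fell by 5.04 on the log2 scale after acute injury (SE 0.65, adjusted p = 1.82e-05) and by 3.97 at fibrosis (SE 0.61, adjusted p = 9.18e-05). Between these stages the filter of the main fit removed it. With limma-voom over all 4 groups or with no filter, fibrosis was 1.03 and 1.08 above acute injury and not called (adjusted p = 0.446 and 0.155). Cirrhotic libraries were back at 2.88 to 8.03 CPM (median 4.29 CPM), 3.69 above fibrosis (SE 0.47, adjusted p = 1.57e-05) and -0.34 from healthy LSECs (95% interval -1.18 to 0.51).

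Tlr3 (ENSRNOG00000021726) moved the same way between healthy, acute and fibrosis libraries, and was higher in cirrhosis than in health. The healthy range was 5.92 to 21.8 CPM (median 8.06 CPM), with replicate 6 far above the rest. Acute libraries were at 4.82, 3.24, 4.17, 3.98 and 3.92 CPM and fibrosis libraries at 4.76, 3.25, 5.32, 4.22 and 4.26 CPM, all below the healthy range. Tlr3 fell by 1.19 after acute injury (SE 0.34, adjusted p = 0.00591) and by 1.05 at fibrosis (SE 0.34, adjusted p = 0.0135). With library size in place of TMM neither fall was called (-0.77 and -0.64, adjusted p = 0.0718 and 0.132). Cirrhotic libraries, from 15.8 to 26.8 CPM (median 20.4 CPM), lay above all healthy libraries but replicate 6, and Tlr3 rose by 1.12 against healthy LSECs (SE 0.26, adjusted p = 0.003) and by 2.23 against fibrosis (SE 0.17, adjusted p = 2.08e-07).

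Tlr7 (ENSRNOG00000004249) had means of 5.04 ± 3.14 CPM in the 6 healthy, 6.43 ± 3.6 CPM in the 5 acute, 9.61 ± 7.68 CPM in the 5 fibrosis and 15 ± 7.43 CPM in the 6 cirrhotic libraries (SD). No pair of neighbouring stages passed the test. Healthy libraries ranged from 1.93 to 9.15 CPM (median 3.67 CPM) and cirrhotic ones from 9.09 to 27.8 CPM (median 11.7 CPM), and the 2 groups met at their edges. Fibrosis libraries held 10.2, 4.59, 22.3, 8.15 and 2.77 CPM, which spans nearly the range of all 4 groups. Tlr7 rose by 1.65 from health to cirrhosis (SE 0.41, adjusted p = 0.00459) and by 1.31 from acute injury to cirrhosis (SE 0.39, adjusted p = 0.00796). The difference between cirrhosis and fibrosis was 0.90 (95% interval -0.14 to 1.93, adjusted p = 0.1), and was called without fibrosis replicate 15 (1.26, adjusted p = 0.0262).

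Myd88 (ENSRNOG00000013634), the adaptor that these receptors share except for Tlr3, was lower than in healthy LSECs at all 3 stages. Healthy libraries ranged from 219 to 526.9 CPM with a median of 436 CPM. Acute libraries were at 54.8, 51.2, 42.2, 42.1 and 51.6 CPM and fibrosis libraries at 49.1, 44.5, 59.4, 47.6 and 45.7 CPM. Cirrhotic libraries were tightly grouped at 205.6 to 244.7 CPM (median 230 CPM), below 5 of the 6 healthy libraries and overlapping only replicate 6. Myd88 fell by 3.01 after acute injury (SE 0.21, adjusted p = 1.05e-07) and by 2.95 at fibrosis (SE 0.21, adjusted p = 1.5e-07), and rose by 2.22 from fibrosis to cirrhosis (SE 0.08, adjusted p = 5.52e-10). In cirrhosis it was 0.79 below healthy LSECs (SE 0.20, adjusted p = 0.005), a difference that fell under the fold threshold with library size in place of TMM (-0.44, adjusted p = 0.0208).

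Acute libraries did not overlap the healthy ones in 4 of the 8 members (Tlr2, Tlr3, Tlr9 and Myd88, all lower), where the same held for 30.8% of the genes tested, and fibrosis libraries in the same 4 (29.1% of the genes tested). Between cirrhosis and fibrosis 5 members did not overlap (Tlr2, Tlr3, Tlr4, Tlr9 and Myd88, all higher), against 30.8% of the genes tested, and between cirrhosis and acute injury Cd14 joined these (6 members, against 33.4%). In cirrhosis against health no member was free of overlap, against 27.1% of the genes tested in either direction. Tlr9 entered the counts above with acute and fibrosis libraries near the floor.

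Markers of Kupffer cells and macrophages moved with the stages as well. The 13 markers of this list summed to 625 to 4740 CPM in healthy, 104 to 265 CPM in acute, 43.7 to 265 CPM in fibrosis and 1380 to 3930 CPM in cirrhotic libraries. Of 12 tested, 11 were lower after acute injury and 12 at fibrosis, and in cirrhosis 1 of 13 was higher than in healthy LSECs and none lower. Of all genes tested, 37.9% were lower after acute injury and 34.9% at fibrosis, and in cirrhosis 27.1% were higher and 24.7% lower. The Kupffer cell marker Clec4f lay at 45.9 to 1160 CPM in healthy and 5.56 to 25.1 CPM in acute libraries, and none of the 4 defining markers (Clec4f, Vsig4, Cd5l and Marco) was at 0 in any library. Within the healthy group the sum was lowest in replicates 3 and 5, at 625 and 727 CPM, against 1980 to 4740 CPM in the other 4. Hepatocyte markers were also lowest in these replicates, at 1860 and 693 CPM, against 8290 to 16900 CPM in the other 4. Low macrophage and low hepatocyte markers can therefore not be told apart there. Myd88 was at 526.9 and 368 CPM in replicates 3 and 5, Tlr2 at 89.8 and 46.7 CPM, and Cd14 at 96.4 and 31.7 CPM, so that replicate 3 was the highest healthy library in Myd88 and replicate 5 the lowest in Tlr2 and Cd14. In a fit with these replicates as the only healthy libraries, chosen after the data were seen, the log2 fold changes after acute injury were -3.02 in Myd88 (adjusted p = 1.77e-06), -4.31 in Tlr9 (adjusted p = 4.1e-05), -1.92 in Tlr2 (adjusted p = 0.000463) and -0.91 in Tlr3 (adjusted p = 0.0123). Cd14 was not called in that fit (-0.59, adjusted p = 0.18). The marker sums of these 2 replicates were still above those of every acute library, and the part of macrophage RNA in the members' changes was not tested.

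Lists of other cell types moved too. B cells and plasmacytoid dendritic cells are known for Tlr7 and Tlr9. The 4 B cell markers summed to 4.65 to 22 CPM in healthy, 0.0921 to 0.726 CPM in acute, 0.732 to 3.68 CPM in fibrosis and 2.01 to 7.54 CPM in cirrhotic libraries. The plasmacytoid list, whose Irf8, Bst2 and Tcf4 are also found in endothelium, summed to 922 to 2080, 289 to 702, 424 to 727 and 761 to 1060 CPM in the same order of groups. Neutrophil and monocyte markers summed to 9.1 to 113 CPM in healthy libraries and at most 2.64 CPM in acute and fibrosis libraries, and T and NK cell markers to 8.55 to 171 CPM and at most 14.8 CPM. Stellate cell markers summed to 165 to 298 CPM in healthy and 1310 to 2130 CPM in acute libraries, a sum carried by Reln (118 to 216 CPM in healthy and 1310 to 2120 CPM in acute libraries), while 4 of the 6 were lower after acute injury and Reln alone was higher. Of all genes tested, 37.9% were lower and 35.5% higher in that comparison. Hepatocyte markers ranged from 693 to 16900 CPM in healthy and from 86.3 to 776 CPM in acute libraries. The part of these cells in the members' levels was not tested.

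**Figure D3:**
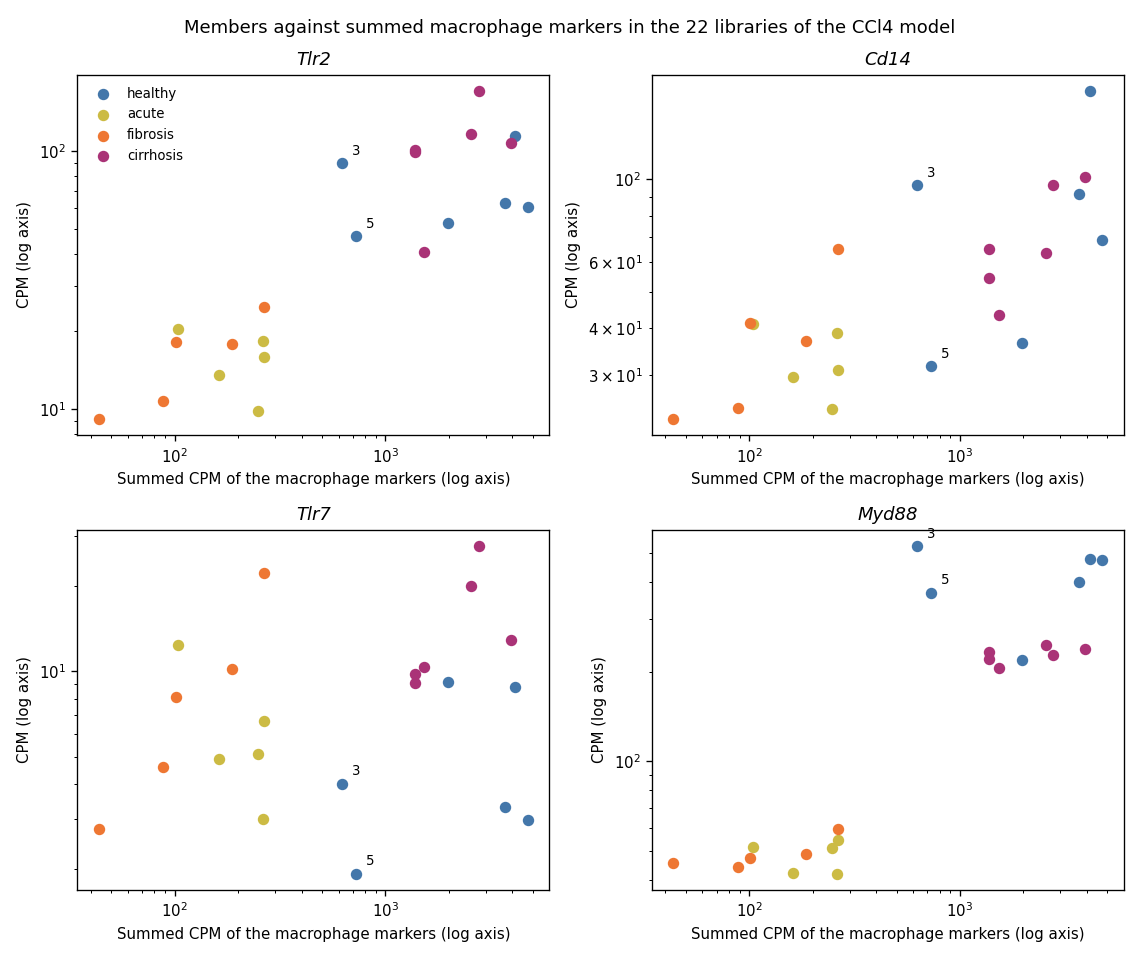
CPM of Tlr2, Cd14, Tlr7 and Myd88 (y axes, log scale) against the summed CPM of 13 macrophage markers (x axes, log scale) in the 22 libraries of the CCl4 model, coloured by stage, with healthy replicates 3 and 5 numbered. Acute and fibrosis libraries lie at marker sums of 43.7 to 265 CPM and the others at 625 to 4740 CPM; healthy replicates 3 and 5 have Myd88 levels of 526.9 and 368 CPM at marker sums of 625 and 727 CPM.

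Other receptors of the family were lower at the early stages. Of 6 tested, 5 were lower after acute injury and none higher, and the same counts were found at fibrosis, with median log2 fold changes of -2.02 and -2.30 against -0.09 and -0.03 over all genes. Of all genes tested, 37.9% were lower and 35.5% higher after acute injury, and 34.9% and 35.3% at fibrosis. Tlr13, which recognises bacterial ribosomal RNA, went from 80.5 ± 35.2 CPM in healthy (SD, n = 6) to 17.8 ± 8.44 CPM in acute libraries (n = 5), a fall of 2.15. Ly86 (MD-1) and Cd180 form a TLR-like complex, and Ly86 fell by 4.12, from 10.7 to 0.515 CPM. Tlr6, a partner of Tlr2, fell by 1.13, and Tlr10 fell by 1.90. Ly86 and Tlr10 were near the floor after acute injury, at 0.189 to 0.714 and 0.245 to 0.6 CPM. At fibrosis they lay at 0.0583 to 0.631 and 0.0936 to 0.399 CPM. Both are among the 5 called lower at each stage, and the sizes of their falls are uncertain. In cirrhosis Tlr13 was the one of 7 called, at 134 ± 43.7 CPM (n = 6) and 0.80 above healthy LSECs (adjusted p = 0.0359). In that comparison 27.1% of all genes were higher and 24.7% lower. With healthy replicates 3 and 5 alone the acute counts were 1 higher and 2 lower, and 4 were higher in cirrhosis.

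Of 7 chaperones and co-receptors, 2 were higher and 3 lower after acute injury, shares near the 35.5% and 37.9% of all genes. Unc93b1, which carries Tlr3, Tlr7 and Tlr9 to endosomes, fell by 2.47, from 186 ± 105 to 28.5 ± 5.22 CPM, and Lbp, the soluble endotoxin-binding protein, fell by 5.20. Hsp90b1 (gp96), the chaperone on which most TLRs depend to fold, rose by 1.58, from 390 ± 183 to 1070 ± 256 CPM, and Lrrc59 rose by 0.95. In cirrhosis Hsp90b1 rose by 1.98 against healthy LSECs (adjusted p = 0.000188), Cnpy4 by 0.81 and the scavenger receptor Cd36 by 1.40, while Cnpy3, a co-chaperone of Hsp90b1, fell by 1.31 (adjusted p = 0.001).

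Among 18 other adaptors and kinases, more were higher than lower against healthy LSECs. After acute injury 10 were higher and 4 lower (35.5% and 37.9% of all genes), at fibrosis 9 and 2 (35.3% and 34.9%), and in cirrhosis 8 and 2 (27.1% and 24.7%). Between the later stages more were lower. In cirrhosis 4 were higher and 9 lower than at fibrosis (34.3% and 29.5% of all genes), and 3 of 17 were higher and 9 lower than after acute injury (37.5% and 31.8%). Traf3, an adaptor toward interferon, rose by 2.39 after acute injury, from 15 ± 3.74 to 74.6 ± 2.9 CPM (adjusted p = 1.22e-07). Irak1, the kinase recruited by Myd88, rose by 1.01, and Tab2, an adaptor of the kinase Tak1, rose by 1.64, while Ripk1 fell by 1.67. In cirrhosis Traf6 (1.07), Tbk1 (1.36) and Tab2 (0.82) were above healthy LSECs and Tab1 was below (-1.06, adjusted p at most 0.00222). With healthy replicates 3 and 5 alone, 4 were higher and 1 lower in cirrhosis.

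Negative regulators were mostly lower at the early stages. After acute injury 7 of 10 inhibitors were lower and 1 higher, against 37.9% and 35.5% of all genes, and at fibrosis 6 and 1, against 34.9% and 35.3%. Sigirr, a receptor that blocks TLR signalling, fell by 5.63, from 48.3 ± 11.1 to 0.959 ± 0.342 CPM, Zc3h12a (regnase-1, which degrades cytokine mRNA) by 4.04, Socs1 by 4.50 and Tnfaip3 (A20) by 2.50. In cirrhosis Sigirr, Socs1 and Zc3h12a were still 1.14, 1.41 and 1.08 lower on the log2 scale than in healthy LSECs, and Cyld was 0.84 higher (adjusted p at most 0.00522), with 2 of 10 higher and 3 lower in all, where 27.1% and 24.7% of all genes were.

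Interferon regulatory factors fell at each stage in 4 of 5 tested, against 37.9%, 34.9% and 24.7% of all genes lower after acute injury, at fibrosis and in cirrhosis. Irf1 went from 3990 ± 776 CPM in healthy to 90.5 ± 26.5 CPM in acute and 2170 ± 373 CPM in cirrhotic libraries, with log2 fold changes of -5.45 and -0.87 against healthy LSECs. Irf7, which Tlr7 and Tlr9 activate, went from 966 ± 476 to 112 ± 111 and 296 ± 95.8 CPM (-3.38 and -1.60). Irf8 (-3.75 and -0.78) and Irf3 (-1.005 and -1.12) completed the 4. Scaling by library size in place of TMM left 2 of these 4 called in cirrhosis.

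Of 5 transcripts tested that TLR signals are known to induce, 1 was higher and 3 were lower after acute injury (35.5% and 37.9% of all genes), and 1 was higher and 2 were lower in cirrhosis (27.1% and 24.7%). Cxcl10 fell from 2750 ± 909 to 50.8 ± 36.8 CPM after acute injury (-5.95), Tnf from 75.5 ± 37 to 1.34 ± 1.23 CPM (-7.82) and Ccl5 from 235 ± 270 to 6.22 ± 5.07 CPM (-4.68), whereas Il6 rose from 2.42 ± 1.74 to 7.08 ± 6.84 CPM (1.41, adjusted p = 0.0457). In cirrhosis Il6 reached 35.6 ± 5.52 CPM (SD, n = 6), 4.17 above healthy LSECs (adjusted p = 2.4e-05), while Cxcl10 (-0.85) and Ccl5 (-2.13) were lower. With healthy replicates 3 and 5 alone Il6 was not called after acute injury (0.92, adjusted p = 0.364), while Cxcl10, Tnf and Ccl5 were still lower, and in cirrhosis Il6 was the one of the 5 called (3.57, adjusted p = 0.000376).

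**Figure D4:**
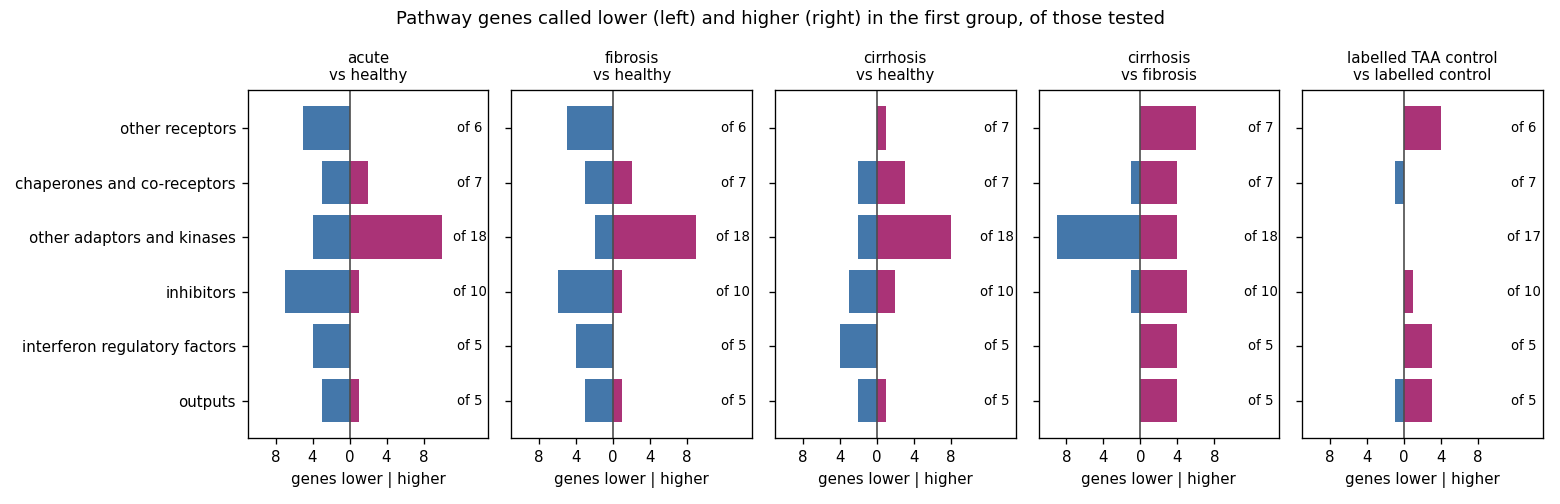
Number of genes called lower (bars to the left) and higher (bars to the right) in the first group of each of 5 comparisons, for 6 lists of pathway genes (y axis), with the number tested at the right. After acute injury 5 of 6 other receptors were lower, and 10 of 18 adaptors and kinases higher.

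In the TAA experiment, in the group labelled TAA control, 2 of 7 members tested were higher than in the group labelled control (Tlr7 and Tlr9) and none lower, where 12.7% of 14376 genes were higher. In that group replicates 14 and 15 resembled each other more than any other pair of libraries of a group, with a chi-square per degree of freedom of 3.05 against 25.2 for the next pair, and stood apart from the other 3. The gap between them was above sampling noise, and both were kept. Such a gap cannot tell different rats from repeated libraries of the same rat. Tlr7 showed this most, at 5.91, 5.41, 3.46, 26.6 and 27.7 CPM in replicates 10, 12, 13, 14 and 15, against 1.69, 2.6, 4.36, 0.493 and 1.22 CPM in the group labelled control. Its difference was 2.48 (SE 0.89, adjusted p = 0.0388), and 1.56 without replicates 14 and 15 (adjusted p = 0.0331). Tlr7 was not called when any of the 5 control-labelled libraries was left out (adjusted p from 0.0509 to 0.0872). Macrophage markers summed to 323, 237, 128, 631 and 676 CPM in the same 5 libraries and to 37.4 to 265 CPM in the group labelled control. Other lists differed as well. Of the stellate cell markers 5 of 6 were lower in the group labelled TAA control, of the hepatocyte markers 4 of 5 and of the cholangiocyte markers 3 of 3, where 14.9% of all genes were lower. T and NK cell markers summed to 12.7 to 34.2 CPM in the group labelled TAA control and 0.458 to 7.26 CPM in the group labelled control. Neutrophil and monocyte markers summed to 3.62 to 29.2 against 0.775 to 4.72 CPM. The plasmacytoid list summed to 783 to 1060 against 719 to 799 CPM, and B cell markers to 1.19 to 21.9 against 1.58 to 20.8 CPM. All 6 immediate-early genes were higher, with sums of 31200 to 46100 CPM against 9430 to 19000 CPM. The part of these lists in the differences was not tested.

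Tlr9 was at 3.3, 4.74, 3.03, 5.77 and 6.3 CPM in the group labelled TAA control and 1.13, 2.38, 3.78, 2.36 and 2.39 CPM in the group labelled control. The difference of 0.95 (SE 0.31, adjusted p = 0.0255) was not called without replicates 14 and 15 (0.69, adjusted p = 0.113), nor without replicate 14, replicate 15 or control-labelled replicate 1 alone (adjusted p = 0.0513, 0.051 and 0.0506). Tlr3 was at 53.6, 46.9, 47.4, 45.8 and 42.1 CPM against 34.7, 39.5, 26.3, 28.1 and 35.3 CPM, and Tlr4 at 13.9, 16.7, 14.3, 11.1 and 11.5 CPM against 8.96, 10.5, 9.69, 7.75 and 9.16 CPM. In both genes every library labelled TAA control was above every library labelled control, as in 18% of the genes tested, but the differences of 0.54 (SE 0.11, adjusted p = 0.00278) and 0.55 (SE 0.13, adjusted p = 0.00476) stayed under the 1.5-fold threshold. Without replicates 14 and 15 they passed it, at 0.61 and 0.71 (adjusted p = 0.00756 and 0.00227), and Tlr2 was lower (-0.67, adjusted p = 0.0319), which made 4 members called. Myd88 differed by 0.01 (95% interval -0.15 to 0.16), at 173 to 205.1 CPM against 177 to 206.9 CPM. Cd14 (-0.04, 95% interval -0.67 to 0.58) and Tlr2 (-0.18, 95% interval -0.87 to 0.51) were not called, and Tlr5 was too low for a test.

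Among pathway genes of the TAA experiment, 4 of 6 other receptors were higher in the group labelled TAA control and none lower, namely Tlr13 (1.18), Tlr6 (0.70), Tlr10 (1.89) and Ly86 (2.00). Of all genes tested, 12.7% were higher and 14.9% lower in that comparison, the shares for each list below as well. Without replicates 14 and 15, 1 of the 6 was called. In the group labelled control Tlr10 and Ly86 reached down to the floor, at 0.176 to 0.596 and 0.0704 to 1.96 CPM, so the sizes of their differences are uncertain. Of interferon regulatory factors Irf7 (1.02), Irf3 (0.62) and Irf1 (0.97) were higher. Cxcl10 was at 4270 ± 705 against 1590 ± 346 CPM (SD, n = 5 each) and Ccl5 at 80.8 ± 28.1 against 5.61 ± 5.79 CPM, both higher with Il1b, while Il6 was at 1.11 ± 0.702 against 17.4 ± 4.64 CPM, lower by 4.22 on the log2 scale (adjusted p = 4.6e-05). None of 17 adaptors and kinases was called. Lbp was lower (-1.08), 1 of 7 chaperones and co-receptors, and Peli3 was higher (0.70), 1 of 10 inhibitors.

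The genes whose log2 CPM followed each member most closely over the 22 libraries of the CCl4 model were looked up among genes with a mean log2 CPM of at least 1. Libraries of 1 stage share their treatment, so these coefficients mostly repeat the differences between stages and carry no p-value. Tlr9 was near the floor in all acute and fibrosis libraries, so its coefficients mostly follow their split from healthy and cirrhotic libraries. Tlr9 and Tlr5 themselves were below a mean log2 CPM of 1. Myd88 was followed by Fam53b, Bcam and Selenoh (Pearson's r = 0.994 each), Tlr9 by Nr4a1 (0.972), an immediate-early nuclear receptor, Tgfbi (0.969) and Themis2 (0.968), and Tlr2 by Pik3ap1 (0.96), Plek (0.958) and Paqr8 (0.955). Tlr3 came nearest to Abcg3l3 (0.954), Ctnnal1 and Cyyr1 (0.953 each), Tlr4 to Alms1 (0.932), Senp7 (0.931) and Ccdc125 (0.916), and Cd14 to Hcar2 (0.924), Mcm3 (0.879) and Slc2a6 (0.878). Tlr7 had the lowest coefficients, with Igsf6 (0.841), the leukocyte gene Cd53 (0.835) and Ptprj (0.81), next to Tlr5 with Mgat4a (0.854), Cass4 and Rassf4 (0.843 each).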

How the data were processed

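RNA of LSECs was sequenced from 22 rats of the CCl4 model and 10 rats of the TAA experiment, with poly(A) selection and strand-specific libraries. According to the study's methods and the submitters' processing notes, reads were mapped to Rnor_6.0 with STAR and genes quantified with RSEM. The authors deposited the expected counts of RSEM, estimates that may hold fractions of a read, for each gene and library, without normalization or pooling. Reads that fit several genes are split by RSEM, which makes genes with close copies uncertain.

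Expected counts were rounded and tested in R 4.3.3 with limma 3.58.1 (voom, TMM factors), which the study's methods name, after a filter by filterByExpr, which they do not name, on the libraries of the 2 groups compared and without covariates. Adjusted p-values are Benjamini-Hochberg values over all genes tested, and calls also needed a fold above 1.5. The study names that fold and a p-value with no adjustment, and unadjusted p-values were an alternative. CPM used TMM factors over the 22 CCl4 or the 10 TAA libraries, and log2 CPM a pseudocount of 0.5. edgeR 4.0.16 and DESeq2 1.42.0 were alternatives, as were other scalings, filters and thresholds, each library left out and the replicate number as a block. The fit of acute injury against healthy LSECs was tested on simulated data, with the spread of the healthy libraries and few genes changed. Most of the smaller differences put in were missed, so that a gene not called may differ. The other comparisons, and scaling where as many genes change as in these data, were not simulated. Promoter search and figures used Python 3.11.15 and matplotlib 3.10.9.

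Groups and replicate numbers come from the labels, and the 12 to 14 weeks of the cirrhotic group from the study's design. Replicates are separate rats by the study's methods. The members and lists were chosen with earlier results of these data known. All members were described, and other pathway genes were named only where called, at most 4 per list, those with the lowest p. Totals of 25646531 to 46464289 counts per library limit the precision of genes below 1 CPM. Gene lengths of the build were not used here, so levels are compared within a gene only. Promoters come from RefSeq's GRCr8 table.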

Additional observations from a re-analysis of the deposited data

Results flagged for a closer look

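Among 48 sets of replicates (8 members in 6 groups), 1 held a library whose gap to the nearest other exceeded Dixon's 95% limit for its group size, where chance gives about 2.4. It was Tlr4 in acute replicate 8, at 2.59 CPM, against 4.55 to 5.34 CPM in the other 4 acute libraries. Tlr4 was not called between acute and healthy LSECs with or without that library.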

How the results depend on the processing

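Besides leaving out single libraries, 551 of the values of single members under an alternative kept their direction and their side of the threshold, 10 lost the call, 22 gained it and 19 changed sign, all 19 in differences that were not called. These alternatives include the fits with healthy replicates 3 and 5 alone and without both TAA replicates 14 and 15. With each library left out in turn the corresponding numbers were 539, 15, 11 and 23. Of the 5 members lower after acute injury and the 5 lower at fibrosis, 3 were left at each stage when library size replaced TMM, which moved the median of all genes by 0.41, 0.40 and 0.35 on the log2 scale at the 3 stages against healthy LSECs. At fibrosis that scaling moved the share of called genes that were higher to 60.9%, from 50.3%. Between fibrosis and acute injury 1 member, Tlr5, was called with unadjusted p-values, and 0 to 1 with libraries left out. The 1 called with a library left out was Tlr9, which was tested there only in some alternatives and was called without fibrosis replicate 17 (1.39, adjusted p = 0.0497). In the TAA experiment 4 members were called without the fold threshold, 4 without replicates 14 and 15, and 0 to 3 with single libraries left out. Counts in the other comparisons with a library left out were 4 to 5 after acute injury, 5 to 6 at fibrosis, 4 to 6 in cirrhosis against health, 6 to 7 against fibrosis and 7 to 8 against acute injury.

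Sign changes were as follows. Tlr5 after acute injury was 0.091 with library size and 0.12 with healthy replicates 3 and 5 alone. In cirrhosis against health Cd14 was 0.10 with upper-quartile factors, 0.30 with library size, 0.054 with a filter at 1 CPM and 0.32 with healthy replicates 3 and 5 alone, and Tlr9 was 0.002 and 0.27 with library size and with those replicates alone. Tlr4 at fibrosis was -0.002 with those replicates alone. Between fibrosis and acute injury a fit over all groups gave -0.002 in Tlr2 and -0.001 in Tlr4. In the TAA experiment Cd14 was 0.054 by edgeR and 0.039 by DESeq2, and Myd88 was -0.012 by DESeq2 and with its size factors, -0.03 with library size, -0.005 with a filter at 1 CPM, -0.02 with replicates 14 and 15 summed and -0.058 without both. With single libraries left out the ranges that crossed 0 were -0.037 to 0.57 (Tlr4, acute), -0.001 to 0.46 (Tlr4, fibrosis), -0.29 to 0.22 (Cd14, cirrhosis), -0.093 to 0.26, -0.095 to 0.18 and -0.008 to 0.36 (Tlr2, Tlr4 and Cd14, fibrosis against acute), and -0.37 to 0.087, -0.21 to 0.14 and -0.019 to 0.042 (Tlr2, Cd14 and Myd88, TAA experiment). The cause of these changes was not tested.

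Healthy, acute and cirrhotic libraries share replicate numbers but come from different rats. Deviations of same-numbered libraries correlated at -0.15 to 0.22. They exceeded 0.1 in 3 of 6 pairs of cirrhosis with health, 2 of 4 of acute injury with health and 0 of 4 of cirrhosis with acute injury. The numbers were not taken as pairs, and shared handling of same-numbered libraries was not tested. With the replicate number as a block Tlr4 was called after acute injury (0.90, adjusted p = 0.0121) and Tlr5 in cirrhosis against health (1.61, adjusted p = 0.0442) and against acute injury (1.62, adjusted p = 0.0149). No such block could be fitted in the comparisons with fibrosis or in the TAA experiment, whose groups share no replicate number.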
